A study of Rattus norvegicus with 6 samples.

Results

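Cadherins, protocadherins and catenins were examined as 1 group of adhesion genes in cultured nerve-derived Schwann cell precursors (NSCPs) and skin-derived precursors (SKPs) of the rat. Members were taken by gene symbol: numbered Cdh and Pcdh genes, clustered protocadherin genes of the alpha, beta and gamma families, Celsr1 to Celsr3, Fat1 to Fat4, Dchs1, and the alpha, beta and delta catenin genes. Of 18166 genes with a probe set of a single symbol, 64 were members: 22 numbered cadherins, 11 non-clustered protocadherins, 19 clustered protocadherins, all of the beta family, 7 Celsr, Fat and Dachsous genes and 5 catenins. Each member had 1 probe set.

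NSCPs were grown from the sciatic nerve and SKPs from the back skin of newborn wild-type Sprague-Dawley rats. Each kind has 3 independent isolates and 1 array per isolate, so replicates stand for separate cultures. The labels run both media together in 1 text, read here to say that NSCPs grew on laminin (4 μg/ml) and poly-D-lysine (30 μg/ml) with neuregulin-1β (25 ng/ml) and forskolin (5 μM), and that SKPs formed spheres with EGF (20 ng/ml) and FGF2 (40 ng/ml). Tissue, medium and growth form therefore cannot be told apart, and attached cells are compared with spheres. In such bulk samples, fewer cells of a type and less RNA per cell cannot be told apart either.

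Classical cadherins are membrane proteins that bind cadherins on neighbouring cells in the presence of calcium, and their cytoplasmic tails hold catenins that connect them to actin. β-catenin serves both at these junctions and as the nuclear effector of Wnt signals. Protocadherins adhere more weakly and give cells a surface identity, and the giant Fat, Dachsous and Celsr cadherins act in planar polarity and growth control. In the nerve, N-cadherin is prominent in Schwann cell precursors, and cadherin-19 is a marker of that stage in rodents, whereas cadherin-11 is the typical cadherin of mesenchyme.

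The labelled cell types were checked against marker lists. Of 8 Schwann lineage markers 7 were higher and 1, Gfra3, was lower in NSCPs, and 9 of 9 dermal fibroblast markers were lower in NSCPs. The Schwann list covers the lineage as a whole, so the stage of the NSCPs within it was not tested. The mean over 10 macrophage and leukocyte markers was 4.91 to 5.13 on the log2 scale in the NSCP arrays, against 10.54, 9.50 and 9.91 in SKP replicates 1, 2 and 3, so the SKP cultures carried leukocyte transcripts and replicate 2 the fewest; 7 of the 10 were within background in NSCPs and 0 in SKPs. Their part in the differences below was not tested. Further marker lists were measured, where 25.2% of all genes were called higher and 18.6% lower. Epithelium including keratinocytes had 1 higher and 1 lower of 8, endothelium 2 and 1 of 7, pericytes and smooth muscle 0 and 2 of 6. Skeletal muscle had 1 higher and 0 lower of 8, melanocytes 2 and 2 of 6, neurons 2 and 2 of 7, perineurium 1 and 3 of 5. Differences reached from -5.41 (Cldn1) to 3.42 (Itgb4) for perineurium, -2.43 to 1.40 for melanocytes and -1.30 to 2.80 for neurons. Arrays correlated by 0.987 to 0.993 within NSCPs, 0.984 to 0.992 within SKPs and 0.872 to 0.888 between them. Background was set at 5.32, below which 95% of 227 receptor genes of smell and pheromone sensing had their mean, and a gene is said to be within background in a group whose mean does not exceed it.

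Of the 64 members 33 passed an adjusted p under 0.05, 12 higher and 21 lower in NSCPs, where 43.7% of all genes passed (25.2% higher and 18.6% lower). Their median difference, NSCP minus SKP, was -0.17 on the log2 scale, against 0.14 over all genes, and their median absolute difference was 0.58, against 0.36 over all genes. At least 2-fold differences were found for 25 members, where 17.4% of all genes had one, and at least 8-fold differences for 9, where 3.18% of all genes had one. The 9 were Cdh19, Pcdh17, Celsr2 and Ctnna3 on the higher side and Cdh11, Pcdh18, Pcdh19, Fat4 and Dchs1 on the lower side. Among the 64, 18 had both group means within background, and 3 of these passed the test. Of the 22 numbered cadherins 5 were higher and 4 lower, so that 40.9% were called, against 43.7% of all genes.

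**Figure D1:**
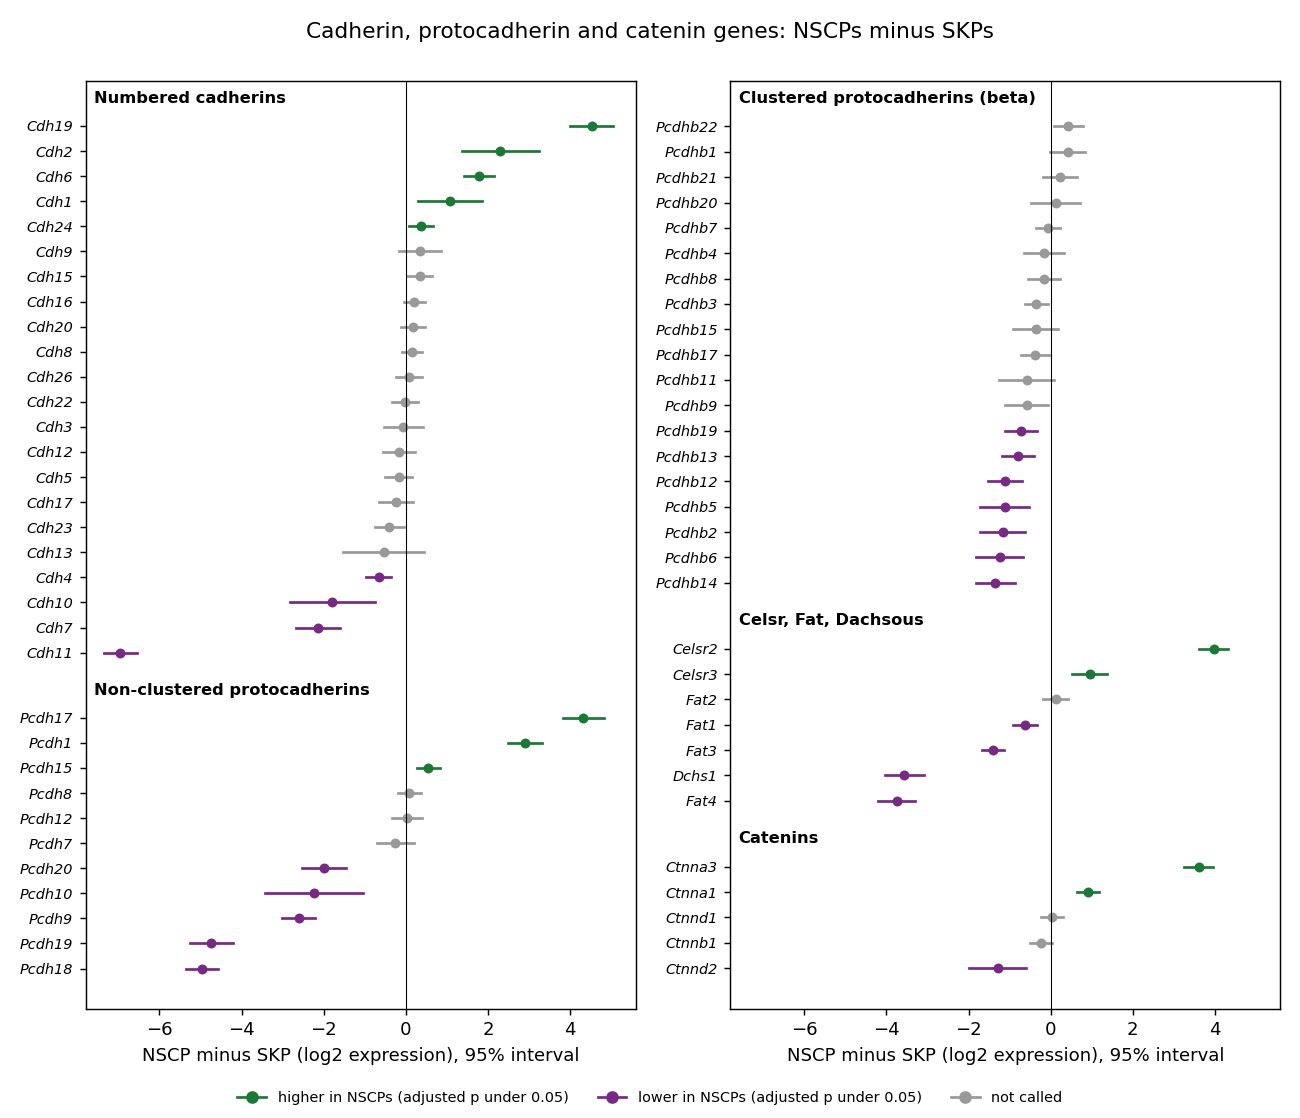
Difference in log2 expression, NSCPs minus SKPs, with its 95% interval from limma for each of the 64 genes, grouped by family and ordered by size; 3 arrays per group. Cdh11, Pcdh18 and Pcdh19 lie farthest to the lower side and Cdh19 and Pcdh17 farthest to the higher side, while the clustered protocadherins stay between -1.35 and 0.43.

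Cdh19, a type II cadherin of the Schwann cell lineage, had the largest excess in NSCPs among the cadherins. Its values were 10.99, 10.18 and 10.92 in NSCP replicates 1 to 3, against 6.26, 6.34 and 5.88 in SKPs. The groups were far apart, and the difference was 4.53 (SE 0.23, adjusted p = 1.09e-06), with SKPs still above background.

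The opposite extreme was Cdh11, which encodes a type II cadherin of fibroblasts and bone-forming cells. NSCP arrays read 5.44, 5.02 and 5.67, close to background, and SKP arrays 12.38, 12.23 and 12.38. Cdh11 was 123.9-fold lower in NSCPs (difference -6.95, SE 0.17, adjusted p = 4.27e-08), the largest difference of any member in either direction.

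Among the type I cadherins, Cdh2, the gene of N-cadherin, was at 9.99, 9.84 and 9.97 in NSCPs and at 8.41, 6.51 and 7.95 in SKPs. NSCPs were uniform and SKPs spread widely, with replicate 2 lowest, and the groups did not overlap. The difference was 2.31 (SE 0.41, adjusted p = 0.00195), and without SKP replicate 2 it was 1.75 (adjusted p = 6.66e-05).

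Cdh1, the gene of E-cadherin, which Schwann cells use in the junctions of non-compact myelin, read 7.24, 7.77 and 7.64 in NSCPs and 7.10, 5.62 and 6.69 in SKPs. The groups came close without overlapping. Its difference of 1.08 passed (SE 0.34, adjusted p = 0.0306), shrank to 0.66 without SKP replicate 2 (adjusted p = 0.0307), and missed the threshold without NSCP replicate 2 (0.97, adjusted p = 0.114) or NSCP replicate 3 (1.04, adjusted p = 0.0822). The mean over the 8 epithelial markers lay between 5.13 and 5.47 in NSCP arrays and between 5.07 and 5.18 in SKP arrays, around background in both. Only 3 of the 8 were within background in each group. Perp averaged 6.21 in NSCPs and 7.27 in SKPs and was called lower (-1.06), and Epcam was called higher (0.81) with both means within background.

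Cdh4, which encodes R-cadherin, was the type I gene that was lower in NSCPs, at 6.91, 6.76 and 6.53 against 7.37, 7.45 and 7.35 in SKPs. Every NSCP array lay below every SKP array, and the difference was -0.66 (SE 0.13, adjusted p = 0.00384). Cdh3, the gene of the epithelial P-cadherin, averaged 5.56 ± 0.13 in NSCPs, against 5.62 ± 0.43 in SKPs (mean ± SD of 3 arrays), near background, and was not called. Cdh15, the muscle M-cadherin gene, averaged 5.62 ± 0.18 in NSCPs, against 5.28 ± 0.06 in SKPs (mean ± SD of 3 arrays). Its difference of 0.34 missed the threshold, and without NSCP replicate 1 it was 0.44 (adjusted p = 0.0287). With all arrays Cdh15 was called higher under 4 of 8 alternative settings of scaling, filtering, adjustment, prior and weights (adjusted p 0.0087 to 0.0481).

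Type II cadherins divided between the cultures. Cdh6, which is also expressed in kidney and neural crest, read 8.84, 8.73 and 8.98 in NSCPs and 6.87, 7.39 and 6.95 in SKPs, a clear excess in NSCPs (1.78, SE 0.16, adjusted p = 3.67e-05). Cdh7, which marks migrating neural crest in the chick, went the other way, at 4.19, 4.92 and 4.13 in NSCPs, all within background, and 6.70, 6.24 and 6.73 in SKPs. The Cdh7 difference was -2.14 (SE 0.23, adjusted p = 1.06e-04).

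Cdh10, a cadherin best known from the brain, read 3.95, 3.54 and 3.59 in NSCPs and 6.33, 4.24 and 5.87 in SKPs, where replicate 2 was itself within background. Its difference of -1.79 (SE 0.46, adjusted p = 0.0129) missed the threshold without NSCP replicate 2 (-1.71, adjusted p = 0.0600) and was -2.41 without SKP replicate 2 (adjusted p = 2.08e-05). Cdh24 differed little, by 0.37 (adjusted p = 0.0394), and its call was lost when any array except NSCP replicate 1 was left out, with differences of 0.37 and 0.30 without NSCP replicates 2 and 3 and of 0.34, 0.39 and 0.38 without SKP replicates 1, 2 and 3. Cdh8, Cdh9, Cdh12, Cdh20 and Cdh22 had differences between -0.17 and 0.35, none of them called, with SKP means within background for all 5.

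Cdh13, which encodes T-cadherin, a GPI-anchored cadherin without a catenin-binding tail, stood at 8.07, 8.07 and 7.98 in NSCPs, against 8.84, 7.42 and 9.48 in SKPs. SKP replicate 2 lay below the NSCP arrays and the other two above them, so the groups overlapped and the difference of -0.54 did not pass (95% interval -1.53 to 0.45). Without SKP replicate 2 the difference was -1.12 (adjusted p = 0.00197). The gene of the hair cell tip link cadherin, Cdh23, had a difference of -0.40 that was not called, and -0.57 without SKP replicate 2 (adjusted p = 0.00956). Cdh5, the VE-cadherin gene of endothelium, averaged 4.87 ± 0.08 in NSCPs, against 5.04 ± 0.22 in SKPs (mean ± SD of 3 arrays), within background in both, and 5 of the 7 endothelial markers were within background in NSCPs and 6 in SKPs. Cdh16, Cdh17 and Cdh26 were at 4.81 to 5.56 on average and were not called.

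Some of these genes are neighbours in the RefSeq annotation of the rat (assembly GRCr8), with no other protein-coding gene between them. Cdh19 and Cdh7 form such a pair on chromosome 13, and the members of the pair differed by 4.53 and -2.14. Among the numbered cadherins, Cdh1 with Cdh3, Cdh11 with Cdh5, Cdh10 with Cdh12 and Cdh4 with Cdh26 are further such pairs, each with 1 called and 1 uncalled member. Because the first pair was called in opposite directions, the 250 bases before the annotated start of Cdh19 and of Cdh7 are shown from RefSeq, 5′ to 3′, with the TATA-box letters TATAAA, searched on both strands and present in 12.9% of all such windows, in capitals.
Cdh19, GRCr8 chr13:28533754-28534003, minus strand: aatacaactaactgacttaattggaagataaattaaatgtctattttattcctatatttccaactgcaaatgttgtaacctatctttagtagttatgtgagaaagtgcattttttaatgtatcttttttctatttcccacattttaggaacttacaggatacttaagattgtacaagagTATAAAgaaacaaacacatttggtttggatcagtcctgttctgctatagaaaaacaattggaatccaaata
Cdh7, GRCr8 chr13:27197332-27197581, plus strand: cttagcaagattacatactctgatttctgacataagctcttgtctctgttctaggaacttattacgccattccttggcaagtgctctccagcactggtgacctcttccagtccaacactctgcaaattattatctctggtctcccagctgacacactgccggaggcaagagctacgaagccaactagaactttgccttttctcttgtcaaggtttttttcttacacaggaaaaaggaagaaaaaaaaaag
The Cdh19 window holds the letters once and the Cdh7 window has no match. The search covered the whole window and took no account of the distance from the start. A match therefore describes letters only and does not show a TATA box, and a part of theirs in the opposite calls was not tested.

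Non-clustered protocadherins contained some of the strongest differences, with 3 of 11 higher and 5 lower in NSCPs. Thus 72.7% of the family were called, against 43.7% of all genes (25.2% higher and 18.6% lower). Pcdh17, a δ2 protocadherin, read 11.01, 10.69 and 10.88 in NSCPs and 6.97, 6.05 and 6.58 in SKPs. It was 20.1-fold higher in NSCPs (difference 4.33, SE 0.22, adjusted p = 1.17e-06). Pcdh1, of the δ1 group, was at 8.62, 9.09 and 8.72 in NSCPs and 6.16, 5.63 and 5.94 in SKPs, and was higher in NSCPs by 2.91 (SE 0.18, adjusted p = 3.73e-06). Both genes were separated from SKPs by more than the spread within either group.

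Pcdh18 and Pcdh19, further δ2 members, were low in NSCPs. For Pcdh18 the NSCP arrays read 6.06, 5.85 and 5.54 and the SKP arrays 10.53, 10.88 and 10.92, so that it was 31.1-fold lower in NSCPs (-4.96, SE 0.17, adjusted p = 1.36e-07). Pcdh19, whose loss causes a form of epilepsy in humans, read 5.35, 5.36 and 5.73 in NSCPs and 9.69, 10.52 and 10.44 in SKPs, 26.7-fold lower in NSCPs (-4.74, SE 0.23, adjusted p = 8.59e-07). The lower group stood slightly above background for both.

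Pcdh9, of the δ1 group, averaged 6.19 ± 0.17 in NSCPs, against 8.80 ± 0.32 in SKPs (mean ± SD of 3 arrays), a difference of -2.61 (adjusted p = 7.03e-06). Pcdh20 averaged 5.76 ± 0.50 in NSCPs, against 7.75 ± 0.12 in SKPs (mean ± SD of 3 arrays), lower in NSCPs (difference -1.99, adjusted p = 1.65e-04). Pcdh10 was within background in every NSCP array, at 4.51, 4.70 and 4.69, and read 7.96, 5.46 and 7.21 in SKPs. Its SKP arrays spanned 2.50, more than those of any other member, and the difference was -2.24 (SE 0.52, adjusted p = 0.00812), or -2.95 without SKP replicate 2 (adjusted p = 1.24e-05).

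Pcdh7 was well expressed in both cultures, at 8.85 ± 0.37 in NSCPs, against 9.11 ± 0.20 in SKPs (mean ± SD of 3 arrays), and its difference of -0.26 was not called (95% interval -0.71 to 0.20). Pcdh8 and the endothelial Pcdh12 were within background in both and not called. Pcdh15, the tip link partner of Cdh23, passed with a difference of 0.54 (adjusted p = 0.00726), but both means lay within background, at 5.16 and 4.61.

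**Figure D2:**
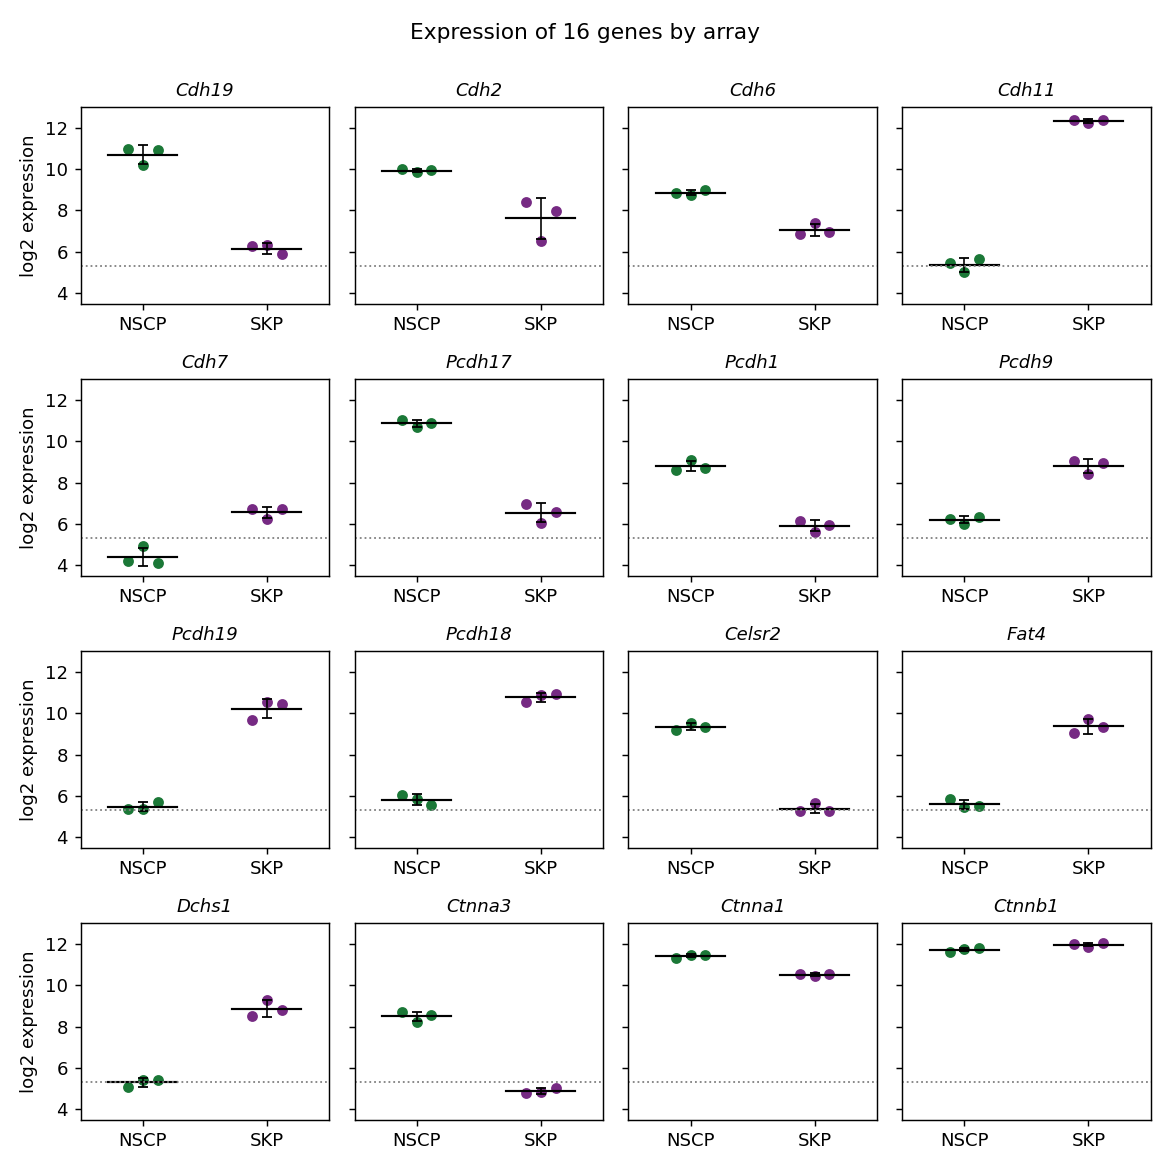
Log2 expression of 16 genes in each of the 3 NSCP and 3 SKP arrays (points), with the group mean (horizontal bar) and SD (error bar); the dotted line is the background level of 5.32. Cdh11, Pcdh19, Pcdh18, Fat4 and Dchs1 fall close to background in NSCPs, Ctnna3 and Celsr2 in SKPs, and Ctnnb1 is high in both.

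The clustered protocadherin genes measured one by one all belong to the beta cluster, an array of single-exon genes of closely related sequence, so their probes may share transcripts and the identity of a single gene is uncertain. Of 19 genes 7 were lower and 0 higher in NSCPs, where 18.6% of all genes were lower and 25.2% higher. By limma without adjustment, 10 were lower and 1 was higher at a p under 0.05, where 20.8% of all genes were lower and 31.1% higher. Their median difference was -0.39, and 15 of 19 had a negative difference, as did 37.9% of all genes. Pcdhb14 was at 7.24, 6.82 and 6.88 in NSCPs and 7.94, 8.71 and 8.34 in SKPs, or -1.35 as a difference (SE 0.21, adjusted p = 8.51e-04). Pcdhb19, named for its high signal, averaged 9.08 ± 0.22 in NSCPs, against 9.80 ± 0.26 in SKPs (mean ± SD of 3 arrays), without overlap (-0.71, SE 0.17, adjusted p = 0.00976).

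The other lower genes were Pcdhb6 (-1.24, both means within background), Pcdhb2 (-1.16), Pcdhb5 (-1.12), and Pcdhb12 (-1.11) and Pcdhb13 (-0.79), the last pair named after their values were seen. A further 6 genes, also named after their values were seen, were not called in the main comparison but were when 1 array was left out. Pcdhb9 was called lower without NSCP replicate 1 (-0.80, adjusted p = 0.0220) or SKP replicate 1 (-0.77, adjusted p = 0.0267), Pcdhb17 without NSCP replicate 1 (-0.52, adjusted p = 0.0244), Pcdhb11 without NSCP replicate 3 (-0.94, adjusted p = 0.00799) and Pcdhb15 without SKP replicate 1 (-0.66, adjusted p = 0.00766). On the higher side, Pcdhb22 was called without NSCP replicate 2 (0.53, adjusted p = 0.0317) and Pcdhb1 without SKP replicate 1 (0.58, adjusted p = 0.0276). Pcdhb22, which missed the threshold with an adjusted p of 0.0525, was also called with all arrays under 5 of 8 alternative settings of scaling, filtering, adjustment, prior and weights (adjusted p 0.0106 to 0.0385). Pcdhb17 was called lower under 2 of these settings (adjusted p 0.0108 and 0.0488). Pcdhb9 was called lower and Pcdhb1 higher under 1 each (adjusted p 0.00643 and 0.0297), and Pcdhb11 and Pcdhb15 were called under 0. The remaining 6 beta genes, Pcdhb3, Pcdhb4, Pcdhb7, Pcdhb8, Pcdhb20 and Pcdhb21, had differences from -0.35 to 0.23. Of these, Pcdhb3 (-0.35) missed the threshold with an adjusted p of 0.0512. It was called lower under 2 of the 8 alternative settings (adjusted p 0.0161 and 0.0164). Pcdhb8 and Pcdhb21 were each called under 1 (adjusted p 0.0477 and 0.0303).

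In the order of the RefSeq annotation the called genes did not form 1 block. Pcdhb5 lay next to Pcdhb6, and Pcdhb12 and Pcdhb14 were consecutive among the measured genes. Uncalled genes lay between these pairs and the other called genes, Pcdhb2 and Pcdhb19. The last 3 genes of the cluster, Pcdhb20, Pcdhb21 and Pcdhb22, had positive differences of 0.13, 0.23 and 0.43.

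**Figure D3:**
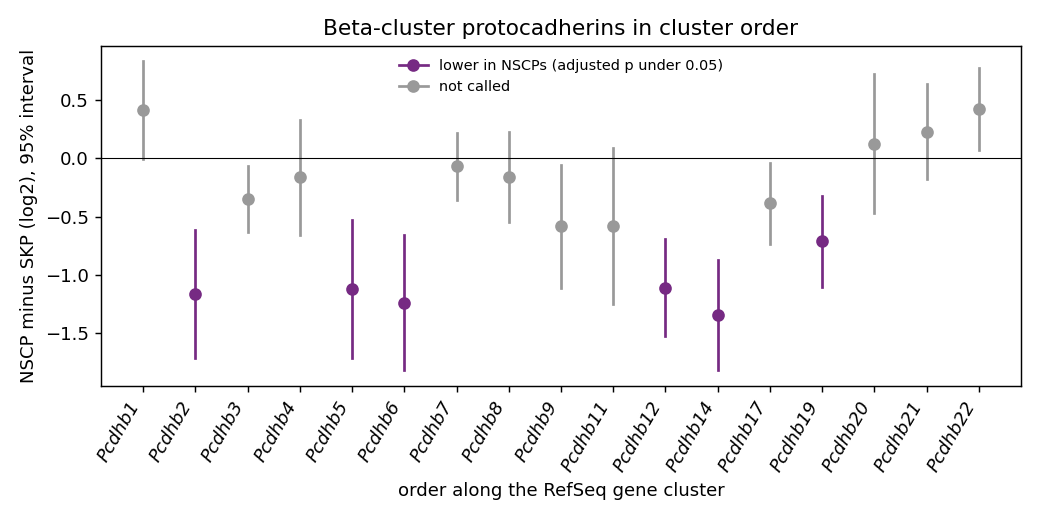
Difference in log2 expression, NSCPs minus SKPs, with its 95% interval for the 17 beta-cluster genes placed in the RefSeq order, from Pcdhb1 to Pcdhb22. Lower genes occur from Pcdhb2 to Pcdhb19 with uncalled genes between them, except that Pcdhb5 and Pcdhb6, and Pcdhb12 and Pcdhb14, stand side by side. The 3 genes at the end have positive values that were not called.

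What the beta genes share beyond their names was looked for in the 250 bases before each annotated start. Windows were given for 14 of the 19 genes. Counting every word of 10 letters after the sequences were seen, the most widely shared was GGTGGCGCTG, found in 13 of the 14 windows and, on either strand, in 0.188% of 33469 windows of the same length in the rat annotation. It holds the letters CGCT, the core of a conserved element known from clustered protocadherin promoters of mouse and human. In 11 of the 13 windows the word began within 110 bases of the start. The word was in the windows of 6 of 6 called genes and 7 of 8 uncalled genes. Because it was picked as the most widely shared word, it could hardly have separated them. It is shown in capitals, with 20 bases on each side, for the 6 called genes that have a window and for 2 uncalled genes, 5′ to 3′ from RefSeq.
Pcdhb2, GRCr8 chr18:29279913-29279962, plus strand: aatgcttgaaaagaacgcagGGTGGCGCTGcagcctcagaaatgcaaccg
Pcdhb5, GRCr8 chr18:29302394-29302443, plus strand: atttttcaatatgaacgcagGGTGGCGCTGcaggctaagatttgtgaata
Pcdhb6, GRCr8 chr18:29320142-29320191, plus strand: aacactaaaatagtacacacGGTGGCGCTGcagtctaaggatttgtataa
Pcdhb12, GRCr8 chr18:29413638-29413687, plus strand: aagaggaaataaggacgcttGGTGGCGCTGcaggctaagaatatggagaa
Pcdhb14, GRCr8 chr18:29431799-29431848, plus strand: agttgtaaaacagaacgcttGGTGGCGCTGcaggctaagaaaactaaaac
Pcdhb19, GRCr8 chr18:29478754-29478803, plus strand: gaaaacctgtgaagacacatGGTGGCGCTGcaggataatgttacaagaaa
Pcdhb20, GRCr8 chr18:29485800-29485849, plus strand: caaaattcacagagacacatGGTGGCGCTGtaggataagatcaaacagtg
Pcdhb21, GRCr8 chr18:29492139-29492188, plus strand: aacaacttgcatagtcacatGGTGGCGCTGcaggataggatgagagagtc
The overlapping word GGCGCTGCAG, which extends it by further letters, was in 11 of the 14 windows and in 0.152% of all windows. A match is a description of letters and no measure of binding.

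Genes of the alpha and gamma clusters share their last exons, and the arrays had 1 probe set for each cluster that carried several symbols and therefore no member. The alpha probe set, with 15 symbols, averaged 5.48 in NSCPs and 5.10 in SKPs. The gamma probe set, with 13 symbols, averaged 7.67 in NSCPs and 8.39 in SKPs, a difference of -0.71.

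Giant and seven-pass cadherins followed, with 2 of 7 higher and 4 lower in NSCPs, or 85.7% called, against 43.7% of all genes. Celsr2, a seven-pass cadherin of planar polarity, read 9.19, 9.55 and 9.32 in NSCPs and 5.25, 5.64 and 5.26 in SKPs, where it was near background. It was 15.7-fold higher in NSCPs (3.97, SE 0.16, adjusted p = 2.57e-07). Celsr3 was higher by 0.95 (adjusted p = 0.00319) with both means within background.

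Fat4 and Dchs1 encode a pair of giant cadherins that bind each other on neighbouring cells. Fat4 read 5.86, 5.45 and 5.52 in NSCPs and 9.02, 9.73 and 9.33 in SKPs (-3.75, SE 0.20, adjusted p = 1.36e-06). Dchs1 read 5.07, 5.39 and 5.44 in NSCPs and 8.49, 9.29 and 8.81 in SKPs (-3.56, SE 0.21, adjusted p = 2.55e-06). The NSCP mean of Dchs1 was within background, and both partners were lower in NSCPs.

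Fat1, which regulates actin at cell contacts, was high in both cultures, at 10.70 ± 0.09 in NSCPs, against 11.33 ± 0.15 in SKPs (mean ± SD of 3 arrays), lower in NSCPs with -0.63 (adjusted p = 0.00386). Fat3 had a difference of -1.40 (adjusted p = 2.77e-05) with its NSCP mean within background, and Fat2 was within background in both and not called.

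Of the 5 catenin genes 2 were higher and 1 was lower in NSCPs, or 60% called, against 43.7% of all genes. Ctnnb1, the gene of β-catenin, read 11.62, 11.77 and 11.79 in NSCPs and 11.97, 11.87 and 12.05 in SKPs. Its groups did not overlap, as for 56.6% of all genes, and the difference of -0.24 did not pass (95% interval -0.51 to 0.03, adjusted p = 0.135). Ctnnd1, the gene of p120 catenin, which stabilises cadherins at the membrane, averaged 10.95 ± 0.03 in NSCPs, against 10.92 ± 0.14 in SKPs (mean ± SD of 3 arrays), with a 95% interval of the difference from -0.24 to 0.31.

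α-Catenins link β-catenin to actin. Ctnna1, the widespread form, read 11.33, 11.46 and 11.46 in NSCPs and 10.55, 10.42 and 10.56 in SKPs, 1.88-fold higher in NSCPs (SE 0.11 on the log2 scale, adjusted p = 2.77e-04). Ctnna3, which encodes αT-catenin, known from heart and testis, was at 8.69, 8.23 and 8.55 in NSCPs and within background at 4.77, 4.82 and 5.05 in SKPs. Its difference of 3.61 (SE 0.15, adjusted p = 4.21e-07) was the largest among the catenins.

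Ctnnd2, which encodes δ-catenin, known from neurons, read 6.12, 5.90 and 5.66 in NSCPs and 7.42, 6.42 and 7.71 in SKPs. All NSCP arrays were lower, and the difference was -1.29 (SE 0.30, adjusted p = 0.00856), or -1.67 without SKP replicate 2 (adjusted p = 1.17e-04).

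SKP replicate 2 thus stood apart for several members. In 7 members, or 10.9% against 4.26% of all genes, the 3 SKP arrays spanned more than 1 log2 unit: Pcdh10, Cdh10, Cdh13, Cdh2, Cdh1, Ctnnd2 and Pcdhb15. Replicate 2 was the lowest array in 6 of the 7 and the highest in Pcdhb15, and over all genes it was the lowest in 505 of 773. The leukocyte marker mean was lowest in the same replicate. Among NSCPs 1 member, Pcdhb11, spanned as much.

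**Figure D4:**
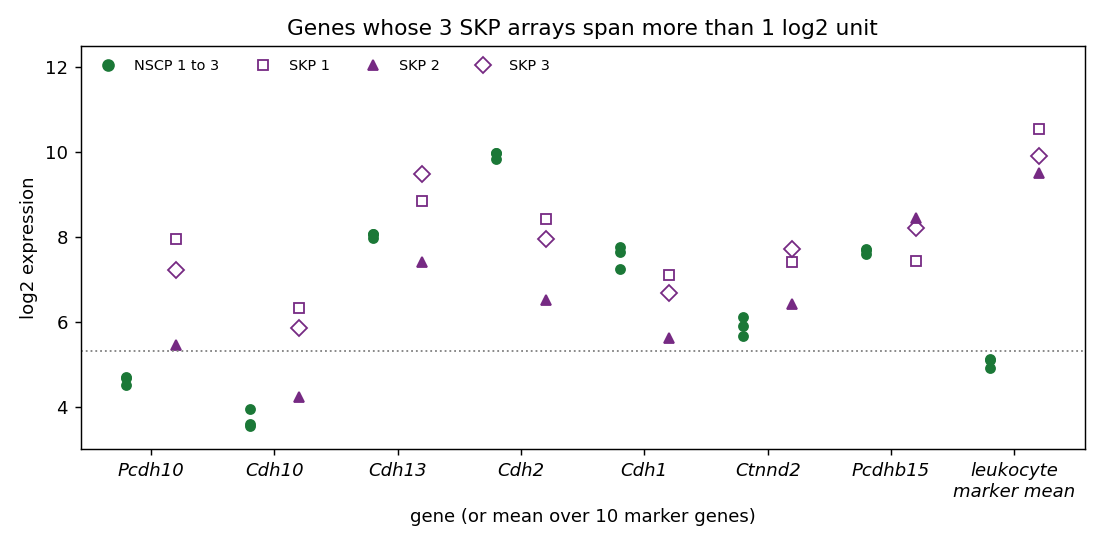
Log2 expression in each array for the 7 genes whose SKP arrays span more than 1 log2 unit, and the mean over 10 leukocyte markers; NSCP arrays are circles to the left and SKP arrays symbols by replicate to the right, and the dotted line is background. SKP replicate 2 (filled triangle) is the lowest SKP array in every column except Pcdhb15.

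Genes that work with cadherins were described by lists. Over all genes 43.7% were called, 25.2% higher and 18.6% lower, with a median of 0.14. Of 21 junction plaque partners 7 were higher and 5 lower in NSCPs, or 57.1% called, with a median of 0.21. Ctnnal1, which encodes α-catulin, a relative of α-catenin, was 17.3-fold higher, at 10.72 ± 0.12 in NSCPs, against 6.60 ± 0.10 in SKPs (mean ± SD of 3 arrays). Plekha7, whose product binds p120 catenin at adherens junctions, was 7.71-fold higher, and the plakophilin gene Pkp2 was higher by 1.47. Lmo7 (-3.65) and Afdn (-2.48), the gene of afadin, which connects nectins to actin, were lower.

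Desmosomal and other cadherin relatives had 3 higher and 5 lower among 13, or 61.5% called, against 43.7% of all genes. The desmosomal cadherin genes Dsc2 (-2.10), Dsg3 (-1.07) and Dsc3 (-0.80) were lower, with NSCP means within background for Dsc2 and Dsg3. The Dsg3 call was lost without NSCP replicate 1 or 3 or SKP replicate 1 or 3, with differences over all left-out arrays from -1.41 to -0.73. Cdhr5 was higher (1.40, SKP mean within background), as was the calsyntenin gene Clstn1 (0.66). Adhesion molecules of the nectin, Cadm and JAM families had 3 higher and 2 lower among 10, or 50% called. Cadm4, which binds axonal partners on Schwann cells, was higher by 4.87, and F11r, the gene of JAM-A, was lower at -3.39 with its NSCP mean within background. Cadm1 (1.43) and Cadm3 (0.76) were higher and Nectin2 (-0.79) was lower. The Cadm1 call was lost without any 1 of the NSCP arrays or SKP replicate 3, and its difference was 0.93 without SKP replicate 2. The Cadm3 call was lost without NSCP replicate 2, and that of Nectin2 without NSCP replicate 1 or SKP replicate 3 (highest adjusted p 0.0528 and 0.0541).

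Transcription factors that repress Cdh1 were mostly lower in NSCPs, 5 of 8, with 1 higher and a median of -1.04. Thus 75% were called, against 43.7% of all genes (25.2% higher and 18.6% lower). Twist2 (-3.55), Tcf4 (-3.20), Snai1 (-2.30) and Twist1 (-1.33) were lower, and Zeb2 was higher by 1.30, at 11.88 ± 0.26 in NSCPs, against 10.58 ± 0.24 in SKPs (mean ± SD of 3 arrays). Twist2 also stood on the list of 9 dermal fibroblast markers, and the NSCP mean of Twist1 was within background. Genes for shedding and processing of cadherins had 6 lower and 1 higher among 10, or 70% called. Adam15 (-1.25), the convertase genes Pcsk5 (-1.09) and Furin (-0.99), Adam9 (-0.89) and Pcsk6 (-0.60) were lower, the last not called without SKP replicate 3 (adjusted p = 0.0560).

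Planar polarity partners had 8 lower and 3 higher among 13 (median -0.65), or 84.6% called, against 43.7% of all genes. Prickle1 was 10.4-fold lower, at 6.24 ± 0.09 in NSCPs, against 9.61 ± 0.11 in SKPs (mean ± SD of 3 arrays), Vangl1 differed by -1.99, Prickle2 by -1.71 and Prickle3 by -0.87, while the receptor gene Fzd6 was higher by 1.44. Partners of Fat and Dachsous had 3 higher and 3 lower among 11, or 54.5% called. Fjx1, the homologue of the fly kinase that modifies Fat and Dachsous, was lower (-0.83). Lix1l was lower (-1.22) and Wwc2 (1.49), Wwc1 (0.69), the gene of the Hippo scaffold Kibra, and the Hippo kinase gene Lats2 (0.63) were higher.

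The destruction complex and nuclear partners of β-catenin had 4 higher and 8 lower among 17 (median -0.43), or 70.6% called, against 43.7% of all genes. The nuclear partner genes Tcf7l1 (-1.94), Tcf7l2 (-1.78), Lef1 (-1.74) and Bcl9l (-1.34) were lower in NSCPs, and Apc2 was higher (1.75). The nuclear partner gene Tcf7, named after its values were seen, was higher as well (0.73, adjusted p = 0.00319). The SKP arrays of Lef1 spanned 1.57 with replicate 2 lowest, and its difference was -2.20 without SKP replicate 2. Regulators of the clustered protocadherins had 4 higher and 0 lower among 13, so that 30.8% were called, fewer than the 43.7% of all genes. Without adjustment 0 were lower and 4, or 30.8%, higher in limma at a p under 0.05, against 20.8% and 31.1% of all genes. The list median was -0.05, and 7 of the 13 differences were negative, as were 37.9% over all genes. The genes called higher were the methyltransferase gene Dnmt1 (1.04), the cohesin genes Rad21 (1.00) and Smc1a (0.65) and the insulator protein gene Ctcf (0.43). The Ctcf call was lost when NSCP replicate 1 or 3 or SKP replicate 1 or 2 was left out (highest adjusted p 0.0593).

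**Figure D5:**
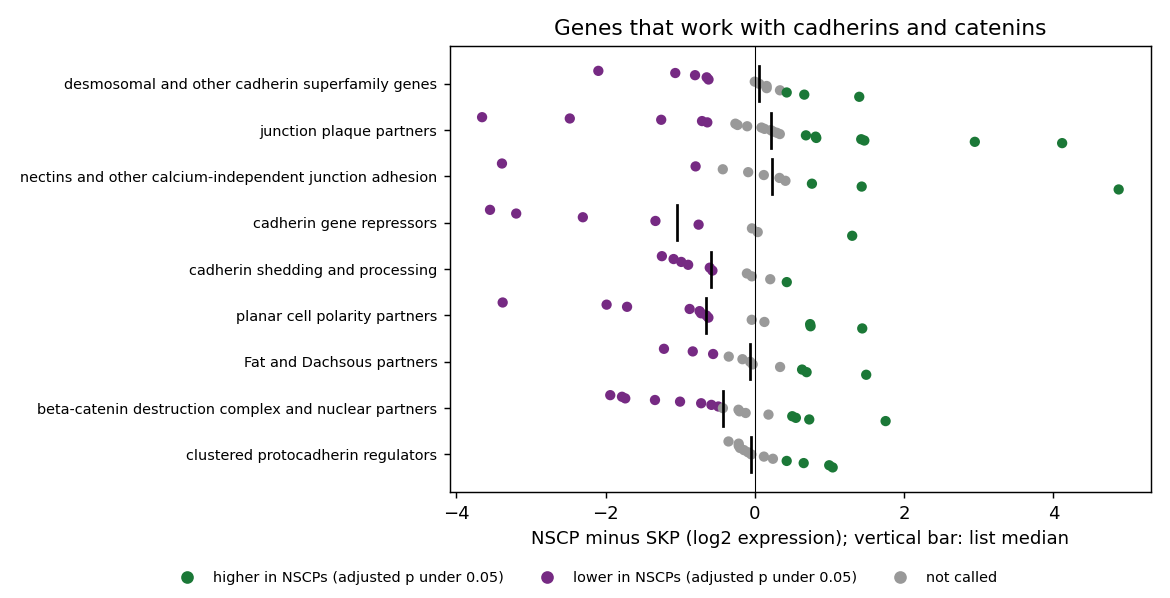
Difference in log2 expression, NSCPs minus SKPs, for every measured gene (point) of 9 lists of genes that work with cadherins and catenins, with the list median as a vertical bar; 3 arrays per group. The lists of cadherin gene repressors and planar polarity partners have their medians at -1.04 and -0.65, and the plaque partners reach from -3.65 to 4.12.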

How the data were processed

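The authors deposited 1 log2 value for each probe set on each array; oligo and RMA are the tools named, per the submitters' processing notes, with versions not given in the sources used here. RMA corrects background, normalizes quantiles and summarises probes, so a global shift between the groups is removed. Per the labels' protocols, cDNA came from a whole-transcript kit. Of 36685 probe sets 18511 had 1 gene symbol in the platform table, 575 several and 17599 none here. Symbols were updated by Entrez ID to RefSeq (GRCr8) for 18394, and for genes with several probe sets that with the highest mean stood for the gene, which gave 18166 genes from 6 arrays. Of the 64 members 62 matched RefSeq, and 46 had a RefSeq start window.

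NSCPs were compared with SKPs on these values, without further filtering, with limma 3.58.1 (R 4.3.3; moderated linear model, both tails, Benjamini-Hochberg over all genes, threshold 0.05), checked on simulated data. Differences are NSCP minus SKP. No detection calls were used, and the number of arrays limits the precision. Alternatives were leaving out each array, the replicate number as a block, other scalings, filters, priors, weights and thresholds. Members and lists were chosen with earlier results of these data known. Named were members (of the beta protocadherins, by largest difference and highest level) and up to 5 called genes per list by size. A few others were named after their values were seen. Figures used matplotlib 3.10.9.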

Additional observations from a re-analysis of the deposited data

How the results depend on the processing

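Over the 6 arrays left out in turn, 31 to 36 members and 34.9% to 41.4% of all genes were called. Tested against a 2-fold change with limma's treat, a stricter question by construction, 15 members were called, 6 higher and 9 lower, and 9.68% of all genes, with 4 numbered cadherins, 1 catenin, 0 clustered protocadherins (0 at an unadjusted p under 0.05 in treat as well, against 2262 of all 18166 genes) and 19 genes of the partner lists, against 71 in the main comparison. With array weights 14 numbered cadherins and 14 clustered protocadherins were called, as were 57.4% of all genes, and 14 numbered cadherins had groups of arrays that did not overlap, as had 56.6% of all genes. Members whose sign turned were uncalled in every such fit. Leaving out single arrays gave ranges of -0.14 to 0.15 for Pcdh12, -0.15 to 0.34 for Pcdhb20, -0.12 to 0.0017 for Pcdhb7, -0.0919 to 0.0762 for Cdh22, -0.32 to 0.0687 for Pcdhb4, -0.0111 to 0.17 for Cdh26, -0.23 to 0.18 for Cdh3 and -0.0481 to 0.0762 for Ctnnd1. Renewed quantile normalization gave -0.0336 for Ctnnd1, and median centring 0.0501 for Cdh22 and 0.0039 for Cdh3. Array weights gave 0.0554 for Cdh12, 0.0208 for Cdh17, 0.0505 for Cdh22, 0.0188 for Cdh3, 0.0071 for Cdh5, -0.0375 for Ctnnd1, -0.11 for Pcdh12, -0.0238 for Pcdh8, 0.0240 for Pcdhb4 and 0.0312 for Pcdhb7.

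With the replicate number as a block 33 members were called, Cdh24 lost its call (adjusted p = 0.0528) and Pcdhb22 gained one (adjusted p = 0.0400). Deviations of same-numbered arrays correlated by 0.0372, 0.0501 and 0.0283 across genes, each the highest for its number, but nothing in the labels says that a number is shared. Cdh1 and Cdh24 missed the threshold when adjusted over all probe sets (adjusted p = 0.0633 and 0.0717), and Ctnnb1 passed with a trended prior (adjusted p = 0.0486) and with array weights (adjusted p = 0.0401).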
